A study of Homo sapiens with 6 samples.

Results

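Collagen and laminin chains were examined in RNA-sequencing values of H1975 cells, an established human non-small cell lung cancer (NSCLC) line with a mutant EGFR. The chains are the rows whose gene symbol is that of a collagen alpha chain (COL, a type number, A and a chain number) or of a laminin alpha, beta or gamma chain (LAMA, LAMB or LAMC and a number). This rule uses names only and selected 56 of the 27216 rows of the table, 44 collagen and 12 laminin chains. Of the 56, 20 had a mean value of at least 1 over the 6 samples on the deposited log2 scale, 13 collagen and 7 laminin chains. The 3 parental samples carry the label of osimertinib (Osi, an EGFR tyrosine kinase inhibitor, 1000 nM) for 0 h, in columns named for DMSO, and the 3 adapted samples that of Osi for 72 h. Both groups are of 1 cell line with WT as the genotype label. Dead cells were rinsed off before extraction, so the adapted samples are the cells still attached after 72 h, and whether the parental cells spent any time in DMSO is not stated. The labels also describe an RNase R step, which digests linear RNA, whereas the methods of the study speak of total RNA alone.

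Collagens are trimers of alpha chains wound around one another, and laminins are cross-shaped trimers of 1 alpha, 1 beta and 1 gamma chain. Laminins and type IV collagen each form a network in the basement membrane, the sheet on which epithelial cells sit, while fibrillar collagens build the fibres of the stroma. Laminin-332, which holds LAMA3 and LAMB3, and the transmembrane collagen of COL17A1 anchor epithelial cells at hemidesmosomes, and laminin-511 (LAMA5, LAMB1 and LAMC1) is the common laminin of mature epithelial basement membranes.

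The 6 type IV genes lie in 3 head-to-head pairs, whose members start close together and are read in opposite directions. In RefSeq (GRCh38.p14) the starts of COL4A1 and COL4A2 are 127 bases apart on chromosome 13, and those of COL4A4 and COL4A3 419 bases apart on chromosome 2. The nearest starts of COL4A6 and COL4A5 are 380 bases apart on chromosome X. COL4A6 has another RefSeq start farther from COL4A5, at 108438422, and which start these cells use was not tested. RefSeq promoter windows, from 250 bases before to 50 bases after a start, were found for 41 of the 56 chains and for 17 of the 20 with a mean of at least 1. They were searched on both strands for the letters TGANTCA, which the factor AP-1 binds. A further search was for GGAATG, which TEAD factors bind. The remaining searches were for the GC box, spelled GGGCGG, and for the box spelled CCAAT. The TATA box was searched as TATAAA. The E-box was searched as CACCTG. The 17 chains have 21 windows. AP-1 letters occurred in 2 of them, those of LAMA3 and LAMB3, against 7.71% of the 35116 RefSeq promoter windows, and TEAD letters in 1, that of COL12A1, against 14% of windows. The GC box occurred in 18 of the 21 windows (45% of all windows), CCAAT in 6 (34.6%), the TATA box in 3 (11.5%) and the E-box in 4 (20.6%). These matches are letters in a window and not measured sites. Shown first, with the matched letters in capitals, are both matches between the starts of COL4A1 and COL4A2, at chr13:110307169-110307193 and chr13:110307209-110307234, written on the plus strand, where GENCODE v29 has a first exon of COL4A1. They are followed by the 250 bases before the start of COL12A1, the chain with the largest difference, at chr6:75206054-75206303 on the minus strand, which holds no GENCODE exon. The last are the AP-1 letters of LAMA3, at chr18:23872885-23872911 and chr18:23872941-23872967 on the plus strand within an annotated LAMA3 exon, and of LAMB3, at chr1:209651425-209651451 on the minus strand outside exons. In the later LAMA3 match the AP-1 letters share bases with an E-box.
COL4A1 and COL4A2, CCAAT: gccgagctccCCAATttgttggcgc
COL4A1 and COL4A2, GC box: ggcggtgcgcGGGCGGcgcctcaaag
COL12A1, TEAD letters: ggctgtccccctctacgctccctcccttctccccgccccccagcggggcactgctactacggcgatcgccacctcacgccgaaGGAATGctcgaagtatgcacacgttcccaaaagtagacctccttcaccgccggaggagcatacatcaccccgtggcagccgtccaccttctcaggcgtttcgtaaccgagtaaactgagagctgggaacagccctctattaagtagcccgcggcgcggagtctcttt
LAMA3, AP-1 letters, first match: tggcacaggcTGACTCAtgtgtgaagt
LAMA3, AP-1 letters, second match: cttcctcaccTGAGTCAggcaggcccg
LAMB3, AP-1 letters: tcagccactcTGACTCAttcactttgg

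Values are given on the deposited log2 scale. Its unit is not named in the table, and the values themselves point to log2(FPKM + 1), with FPKM standing for fragments scaled by transcript length and library size. Log2 fold changes are differences of group means on this scale. Where values are low, they are smaller than the change in FPKM itself. No read counts were analyzed, so depth is unknown and the spread between samples is the only error. Nothing states that the samples of a group came from separate cultures, so p-values measure the spread between these samples. All 7 epithelial markers examined were expressed (EPCAM, parental 7.60 ± 0.02 and adapted 7.45 ± 0.14, SD over 3 samples). By limma (adjusted p under 0.05), KRT7 was higher in adapted cells, with a log2 fold change of 1.07. KRT19, KRT18 and KRT8 were lower (-0.75, -0.57 and -0.28), and EPCAM, CDH1 and EGFR did not pass. Of 4 lung lineage markers, NKX2-1 (5.004 ± 0.01 and 5.48 ± 0.25) and NAPSA (6.69 ± 0.01 and 5.88 ± 0.37) were expressed, the former higher and the latter lower in adapted cells (adjusted p of 0.0117 and 0.00474 by limma), and SFTPB and SFTPC did not exceed 0.29. None of 6 fibroblast markers had a mean of at least 1, and THY1 was listed at 0 in every sample. None of 5 endothelial markers had a mean of at least 1 over all samples. Among them, CDH5 was 0.21 ± 0.05 in parental and 1.71 ± 0.47 in adapted cells, and PECAM1 was 1.22 ± 0.21 and 0.09 ± 0.02. Of 4 leukocyte markers only CD68 reached that mean, at 6.25 ± 0.02 in parental and 4.40 ± 0.50 in adapted cells (adjusted p = 3.63e-04 by limma). Adapted replicate 1 stood apart. Its correlation with the other adapted samples across all rows was 0.991, against 0.996 between those, and in 6 of the 20 chains it lay more than 0.5 outside the values of adapted replicates 2 and 3, as it did in 7.06% of all rows tested. Among these are COL17A1 and LAMB3, where it was lower, and COL4A5, COL5A1 and COL27A1, where it was higher, so that values without this sample are given beside them. In bulk RNA, fewer cells that express a gene and less RNA per cell cannot be told apart.

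Most of the collagen chains tested rose in adapted cells, and how many laminin chains passed the threshold rested on adapted replicate 1. Of the 20 chains tested, 11 rose and 2 fell past the threshold (limma, adjusted p under 0.05 over all 12656 rows tested), a share of 65%, against 56.9% of all rows, 30.7% higher and 26.2% lower. By family, 9 of 13 collagen chains rose and 1 fell, and 2 of 7 laminin chains rose and 1 fell. Without adapted replicate 1, all 7 laminin chains passed the threshold, 3 higher and 4 lower, and 11 of the 13 collagen chains did, 9 higher and 2 lower. COL5A1 and COL12A1 passed the filter only through the adapted samples and so had to differ. Among the other 18 chains, 9 rose and 2 fell. The median log2 fold change was 0.96 over the 13 collagen chains, -0.12 over the 7 laminin chains and 0.03 over all rows tested. The collagen median includes COL5A1 and COL12A1, which raise it. The groups did not overlap in 15 of the 20 chains, 12 higher and 3 lower, against 66.3% of all rows, 35.7% higher and 30.6% lower. COL5A1 and COL12A1 are among these 12. Without adapted replicate 1, 18 chains passed the threshold, 12 higher and 6 lower, where 66.1% of all rows did.

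**Figure D1:**
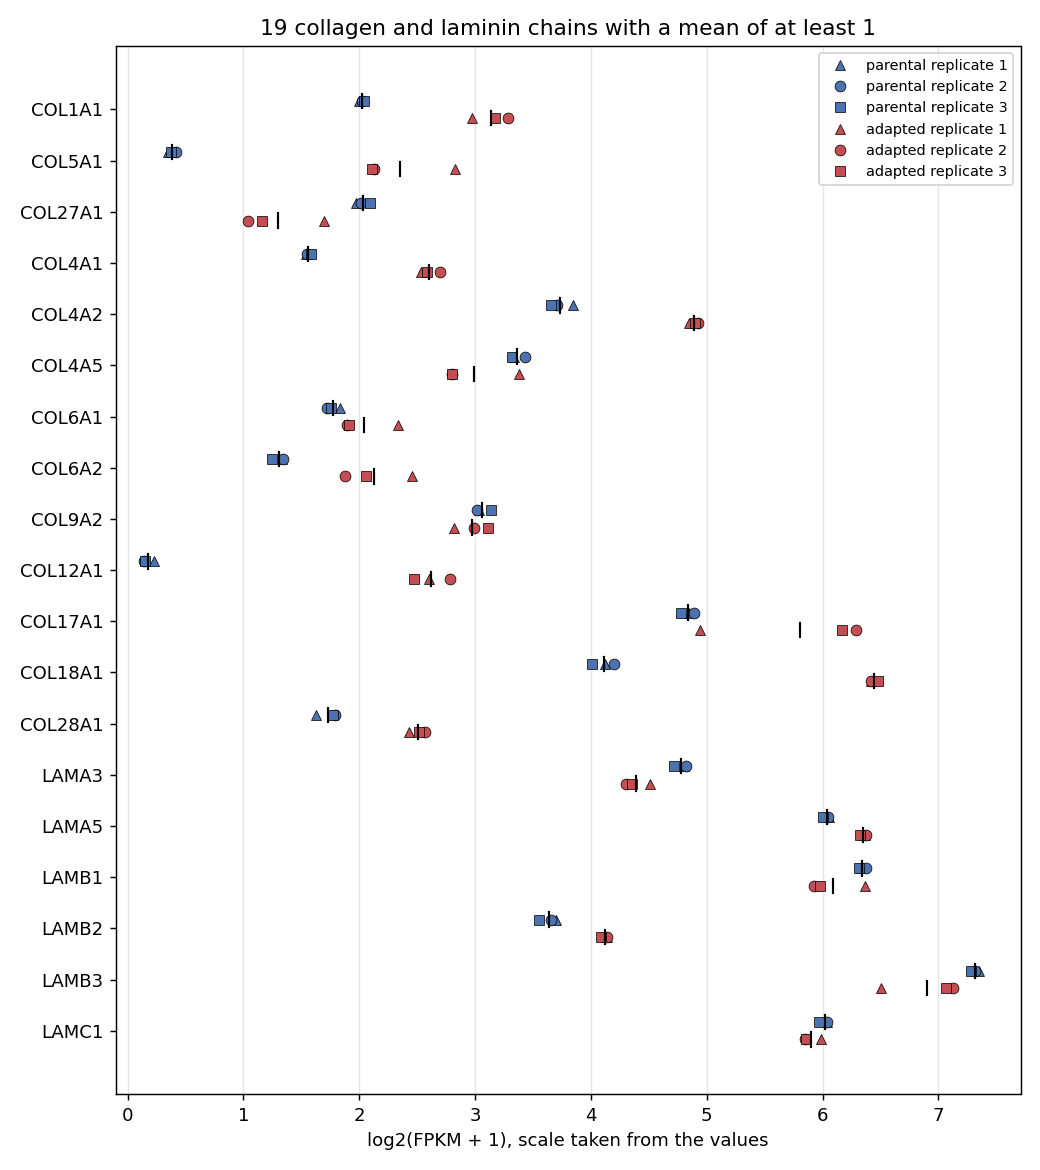
Log2(FPKM + 1) of 19 collagen and laminin chains with a mean of at least 1, by sample (3 parental samples in blue, 3 adapted samples in red, a black bar at each group mean). COL12A1, COL18A1, COL5A1, COL1A1, COL4A1 and COL4A2 show parental and adapted points far apart, while the adapted points of COL17A1 are split, with replicate 1 lowest.

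**Figure D2:**
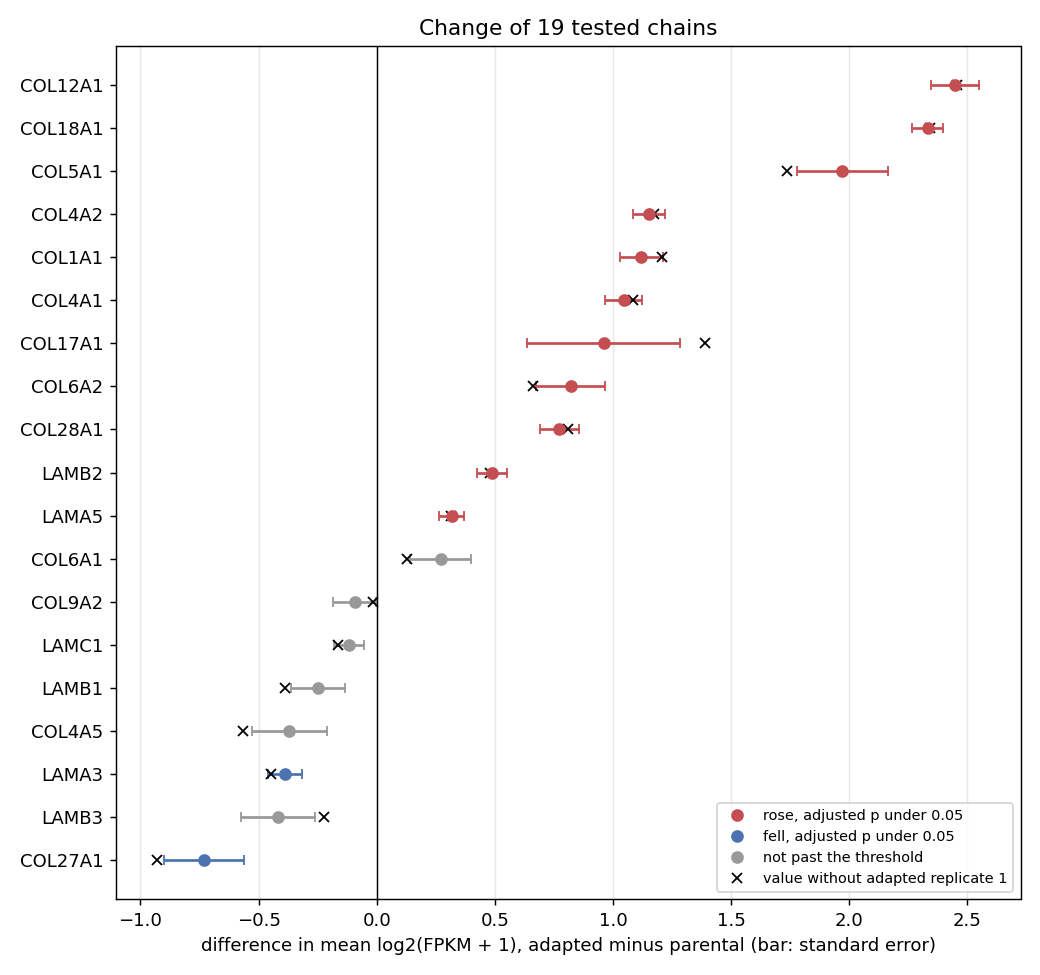
Difference in mean log2(FPKM + 1) between 3 adapted and 3 parental samples for 19 of the chains tested, with the standard error from limma as a bar and the value without adapted replicate 1 as a cross. Values run from 2.45 for COL12A1 to -0.73 for COL27A1, and 6 chains in grey are not past the threshold. COL12A1 and COL5A1 passed the filter only through the adapted samples and so had to differ, and their colour is not to be read as a test result.

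Both ubiquitous type IV chains, COL4A1 and COL4A2, which form the basic collagen network of all basement membranes, rose. COL4A1 (chromosome 13, 110148963 to 110307233, GENCODE v29, GRCh38, minus strand) was 1.54, 1.55 and 1.58 in parental and 2.53, 2.70 and 2.58 in adapted cells, which is a log2 fold change of 1.05 (standard error, SE, 0.08, adjusted p = 4.95e-05 by limma). COL4A2 (chromosome 13, 110305812 to 110513209, plus strand) was 3.85, 3.71 and 3.65 in parental and 4.85, 4.92 and 4.89 in adapted cells, a log2 fold change of 1.15 (SE 0.07, adjusted p = 1.95e-05). In each chain all adapted samples lay above all parental samples (p = 0.1 by a two-sided exact permutation, the lowest value that 3 samples against 3 can reach). On the linear FPKM scale the mean level in adapted cells was 2.62 times that in parental cells for COL4A1 and 2.32 times for COL4A2. The chains of this head-to-head pair kept a similar proportion, with 0.143 to 0.172 COL4A1 per COL4A2 in parental samples and 0.172 to 0.187 in adapted samples, as ratios of linear values.

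The other type IV pairs were compared by their levels, since most of these chains lay below the filter and were not tested. COL4A3 and COL4A4, the chains of the kidney glomerulus and the lung alveolus, were near 0 in parental cells. COL4A3 was 0.01, 0.02 and 0.18 in parental and 0.31, 0.87 and 0.64 in adapted cells, and COL4A4 was 0, 0.02 and 0.01 against 0.23, 0.61 and 0.58. Neither overlapped between groups, and both were lowest among adapted samples in replicate 1. COL4A5, their partner in the trimer, was 3.33, 3.43 and 3.32 in parental and 3.38, 2.80 and 2.80 in adapted cells, a log2 fold change of -0.37 (SE 0.16, adjusted p = 0.0801 by limma) that was not past the threshold. Without adapted replicate 1, whose value lay among the parental ones, it was -0.56 (adjusted p = 1.98e-04). COL4A6, which has 1 of its RefSeq starts close to that of COL4A5, was 0.93, 0.86 and 0.82 in parental and 0.29, 0.13 and 0.16 in adapted cells, with no overlap. Within each of the 3 head-to-head pairs the means of both chains thus differed in the same direction.

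**Figure D3:**
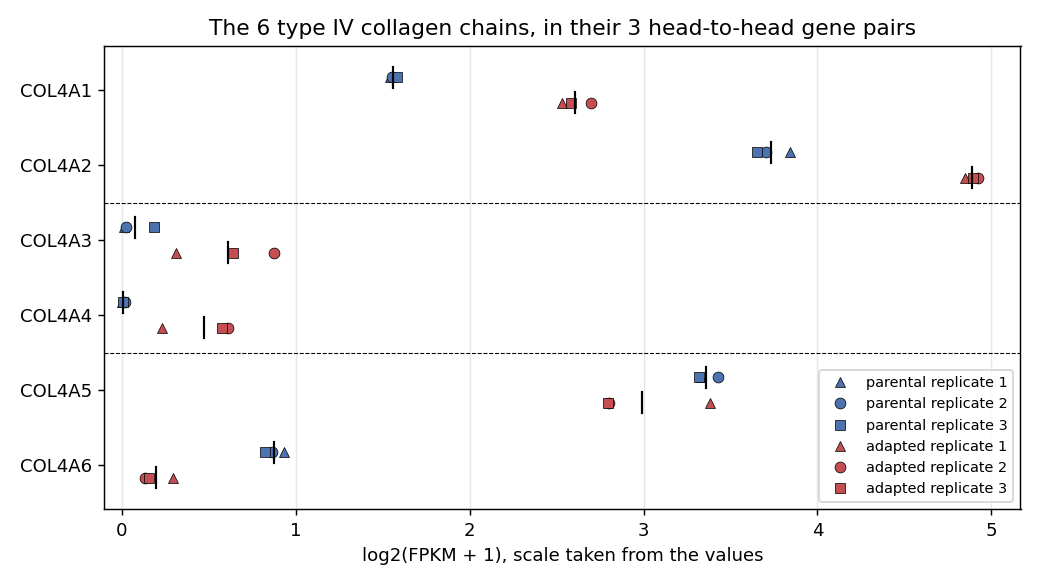
Log2(FPKM + 1) of the 6 type IV collagen chains by sample, with dashed lines between the 3 head-to-head gene pairs and a black bar at each group mean (3 parental samples in blue, 3 adapted samples in red). Adapted points lie above parental points for COL4A1, COL4A2, COL4A3 and COL4A4 and below them for COL4A6, while adapted replicate 1 of COL4A5 lies among the parental points.

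Laminin-332 links the cell to the basement membrane through the integrin of ITGA6 and ITGB4 on the surface of the cell. LAMA3, the alpha chain, was 4.80, 4.82 and 4.71 in parental and 4.51, 4.31 and 4.35 in adapted cells and fell by 0.39 on the log2 scale (SE 0.07, adjusted p = 0.00317 by limma). LAMB3, the beta chain, was 7.35, 7.32 and 7.28 in parental and 6.51, 7.12 and 7.06 in adapted cells, a log2 fold change of -0.42 (SE 0.16, adjusted p = 0.053), with no overlap between groups. Without adapted replicate 1, the difference in LAMB3 was -0.22 (adjusted p = 0.00627). LAMA3 and LAMB3 were thus lower in all adapted samples than in any parental sample, and adapted replicate 1 was the highest adapted sample in LAMA3 and the lowest in LAMB3. On the linear FPKM scale LAMA3 stood at 0.164 to 0.171 of LAMB3 in parental samples and at 0.242, 0.136 and 0.146 in adapted samples. The genes are LAMA3 on chromosome 18 (23689443 to 23956222, plus strand) and LAMB3 on chromosome 1 (209614870 to 209652466, minus strand).

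Laminin-511 differed by chain. LAMA5, its alpha chain, was 6.05, 6.04 and 6.01 in parental and 6.36, 6.37 and 6.32 in adapted cells, a log2 fold change of 0.32 (SE 0.05, adjusted p = 0.00187 by limma). LAMB1, the beta chain, was 6.33, 6.37 and 6.31 in parental and 6.36, 5.93 and 5.97 in adapted cells, and its log2 fold change of -0.25 (SE 0.11, adjusted p = 0.0997) was not past the threshold. Without adapted replicate 1 it was -0.39 (adjusted p = 3.31e-04). LAMC1, the gamma chain, was 6.04, 6.04 and 5.97 in parental and 5.99, 5.85 and 5.86 in adapted cells (log2 fold change -0.12, SE 0.06, adjusted p = 0.144), and without adapted replicate 1 the difference was -0.16 (adjusted p = 0.02). LAMA5 and LAMC1 stood at nearly equal linear levels in parental samples (ratios of 1.007, 1.002 and 1.028) and LAMA5 was the higher in adapted samples (1.30, 1.44 and 1.38). The ratio of LAMA5 to LAMB1 moved from 0.822, 0.794 and 0.808 to 0.9999, 1.37 and 1.27, and neither ratio overlapped between groups (p = 0.1 and adjusted p = 0.2 over 6 partner pairs for both, exact permutation test on log2 differences). LAMA5 shares 1.71% of its exon bases with ADRM1 on the opposite strand, which rose by 0.21 (adjusted p = 0.016), and 0.83% with LAMA5-AS1. LAMB1 shares 0.86% with DLD and 2.715% with the antisense gene AC005046.1. The strand setting of the counting is not given in the sources used here, and its part in these values was not tested.

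**Figure D4:**
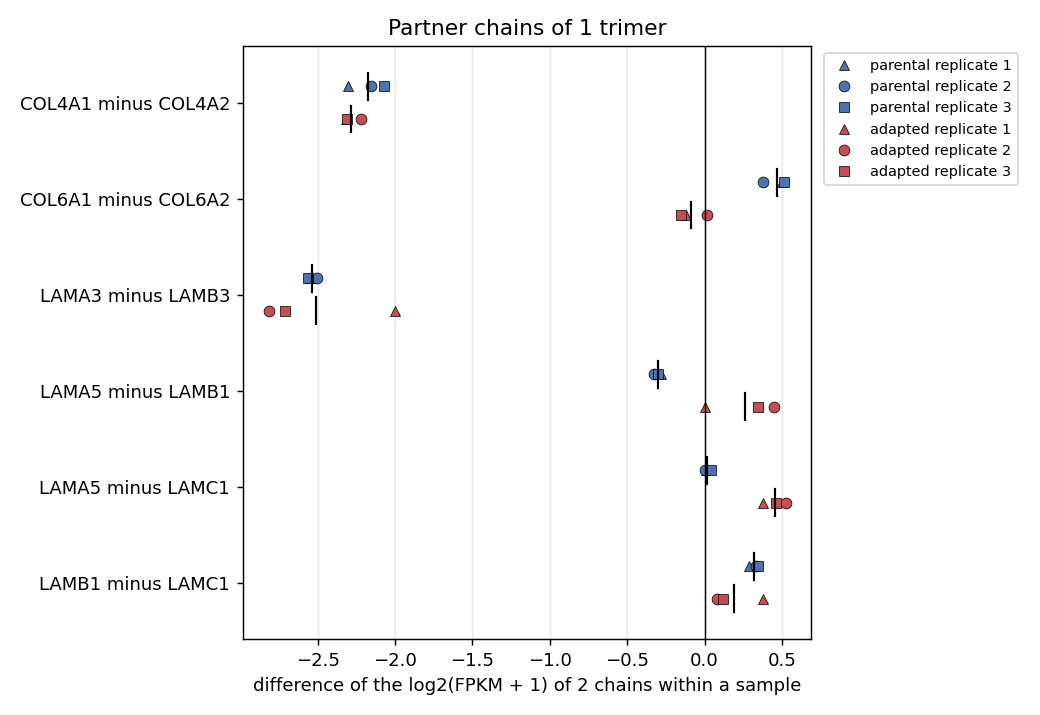
Difference of the log2(FPKM + 1) of the chains of 6 partner pairs within each sample (3 parental samples in blue, 3 adapted samples in red, a black bar at each group mean). The values of COL6A1 minus COL6A2 are lower in every adapted sample than in any parental sample, LAMA5 minus LAMB1 and LAMA5 minus LAMC1 are higher, and the other 3 pairs overlap.

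Of the remaining laminin chains, LAMB2, which takes the place of LAMB1 in laminins such as that of the neuromuscular junction, rose from 3.70, 3.65 and 3.55 to 4.14, 4.14 and 4.09 (log2 fold change 0.49, SE 0.06, adjusted p = 5.97e-04 by limma). LAMC3, a gamma chain of few tissues, averaged 0.63 ± 0.07 in parental and 1.22 ± 0.20 in adapted cells (SD of 3 samples) and lay below the filter, with values of 0.70, 0.63 and 0.56 against 1.45, 1.06 and 1.16. LAMA1, the alpha chain of embryonic laminin, was between 0 and 0.01 in parental and between 0.11 and 0.23 in adapted cells. LAMA2, LAMA4 and LAMB4 did not exceed 0.46 in any sample.

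COL18A1 and COL17A1 had the highest means of the collagen chains. COL18A1, a basement membrane collagen that carries heparan sulfate and whose end is cleaved off as endostatin, was 4.12, 4.20 and 4.01 in parental and 6.42, 6.42 and 6.48 in adapted cells. Its log2 fold change was 2.33 (SE 0.07, adjusted p = 1.15e-06 by limma), and the 6 fits that each left out 1 sample gave 2.28 to 2.38. The ratio of its linear means, adapted to parental, was 5.27. The gene (chromosome 21, 45405137 to 45513720, plus strand) shares 16.4% of its exon bases with SLC19A1 on the opposite strand, which averaged 1.96 ± 0.02 and 2.08 ± 0.01 in the parental and adapted groups (SD of 3 samples). COL17A1 (chromosome 10, 104031286 to 104085957, minus strand), the transmembrane collagen of hemidesmosomes, was 4.85, 4.89 and 4.78 in parental and 4.95, 6.29 and 6.17 in adapted cells. Adapted replicates 2 and 3 were far above the parental samples and replicate 1 just above them. The log2 fold change of COL17A1 was 0.96 (SE 0.32, adjusted p = 0.037) with all samples and 1.39 (adjusted p = 2.16e-06) without adapted replicate 1. It was not past the threshold in the fits that left out any other single sample (0.72 to 0.99, adjusted p up to 0.12). COL13A1, another transmembrane collagen, was 0.86 to 0.95 in parental and 0.64 to 0.92 in adapted cells and was not tested, and COL23A1 and COL25A1 did not exceed 0.05.

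Among collagens of the stroma that passed the filter through both groups, COL1A1 rose and COL27A1 fell, and COL12A1 and COL5A1, which passed through the adapted samples only, are described without a test. COL12A1, a collagen that decorates the surface of type I fibrils, was 0.23, 0.14 and 0.15 in parental and 2.61, 2.78 and 2.48 in adapted cells. Its log2 fold change was 2.45 (SE 0.10), with linear means of 0.128 FPKM in parental and 5.18 FPKM in adapted cells. Its gene lies on chromosome 6 (75084326 to 75206051, minus strand). COL5A1, which sets the diameter of collagen fibrils (chromosome 9, 134641774 to 134844843, plus strand), was 0.35, 0.42 and 0.38 in parental and 2.83, 2.13 and 2.11 in adapted cells, a log2 fold change of 1.97 (SE 0.19), with replicate 1 the highest of the adapted samples. Without that sample the log2 fold change of COL5A1 was 1.74. Over all samples its linear mean was 0.304 FPKM in parental and 4.26 FPKM in adapted cells. COL1A1, the major chain of type I collagen (chromosome 17, 50183289 to 50201632, minus strand), was 1.99, 2.03 and 2.04 in parental and 2.97, 3.28 and 3.17 in adapted cells, a log2 fold change of 1.12 (SE 0.09, adjusted p = 7.80e-05). Chains that usually complete these trimers stayed low. COL1A2 was between 0 and 0.04 in all 6 samples, and COL5A2 was 0.36 to 0.43 in parental and 0.42 to 0.60 in adapted cells, with overlap. COL3A1, the type III chain of the stroma, was between 0 and 0.02 in parental cells and 1.37, 0.17 and 0.11 in adapted cells, so its level in replicate 1 was far above the others. COL27A1, a fibrillar collagen of cartilage, fell from 1.97, 2.02 and 2.096 to 1.70, 1.04 and 1.16, by 0.73 on the log2 scale (SE 0.17, adjusted p = 0.00801), and by 0.93 without adapted replicate 1. The summed linear level of the 6 fibroblast markers was 0.06 to 0.16 FPKM in parental and 0.55 to 0.81 FPKM in adapted samples, most of it LUM (0.61 ± 0.11 in adapted cells on the log2 scale, SD, n = 3), while PDGFRA did not exceed 0.02 in any sample.

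Among collagens of beaded filaments, COL6A2 rose from 1.33, 1.35 and 1.24 to 2.45, 1.88 and 2.06 (log2 fold change 0.82, SE 0.15, adjusted p = 0.00254 by limma), while COL6A1 went from 1.83, 1.72 and 1.76 to 2.33, 1.89 and 1.91 (log2 fold change 0.27, SE 0.13, adjusted p = 0.112) and was not past the threshold. The difference in COL6A1 was 0.13 without adapted replicate 1. The linear ratio of COL6A1 to COL6A2 was 1.49 to 1.74 in parental and 0.867 to 1.014 in adapted samples, with no overlap (exact permutation test, p = 0.1, adjusted p = 0.2). COL6A3, which completes the classical type VI trimer, did not exceed 0.03 in any sample. COL28A1, a little-studied collagen related to type VI, rose from 1.62, 1.79 and 1.78 to 2.43, 2.57 and 2.51 (log2 fold change 0.77, SE 0.08, adjusted p = 2.41e-04). COL9A2, a chain of the collagen on the surface of cartilage fibrils, averaged 3.06 ± 0.07 and 2.97 ± 0.15 in the parental and adapted groups (SD of 3 samples, adjusted p = 0.416), while its partners COL9A1 and COL9A3 did not exceed 0.09.

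Of the 36 chains below the filter, 6 were listed at 0 in all samples (COL2A1, COL5A3, COL6A5, COL19A1, COL22A1 and COL25A1) and 12 did not reach 0.1 in any sample. In the other 18, the adapted mean was higher in 12 and lower in 6. Besides those named above, COL21A1 was 0.37 ± 0.05 in parental and 0.95 ± 0.10 in adapted cells, COL8A1 was 0.07 ± 0.01 against 0.49 ± 0.13 and COL15A1 was 0.33 ± 0.04 against 0.52 ± 0.02 (SD of 3 samples). COL7A1, the anchoring fibril collagen below hemidesmosomes, was 0.85, 0.77 and 0.85 in parental and 1.24, 0.52 and 0.44 in adapted cells, with replicate 1 above and the others below all parental samples. Chains below the filter other than LAMC3 were singled out after their values were seen.

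Summed over the 44 collagen chains, linear values were 92.4, 93.8 and 89.0 FPKM in parental and 204, 244 and 239 FPKM in adapted cells, and every adapted sample lay above every parental sample. COL18A1 made up 17.7% of the collagen sum in parental and 37.7% in adapted cells (means of 3 samples), and COL4A2 made up 13.5% and 12.6%. The share of COL17A1 was 30.1%, 30.6% and 29.7% in the parental samples and 14.6%, 31.6% and 29.7% in the adapted samples, low in adapted replicate 1 and close to the parental shares in the others. COL4A5 made up 10.1% and 3.18% and COL9A2 8.04% and 3.0%, the adapted shares being of a larger total.

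**Figure D5:**
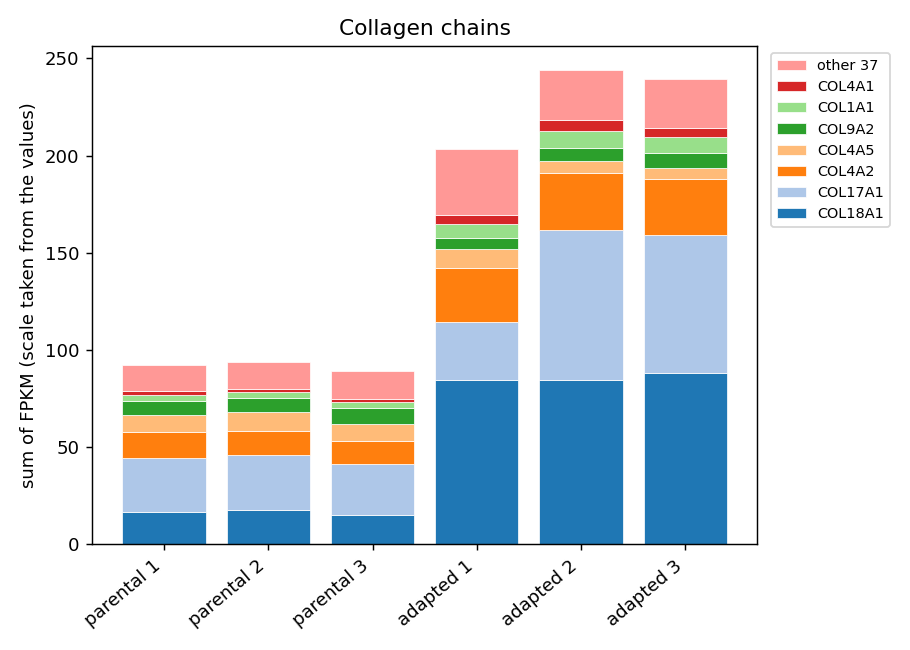
Sum of linear FPKM by sample for the 44 collagen chains, stacked by chain, with the 7 most abundant chains named. The collagen sum is 89.0 to 93.8 in parental and 204 to 244 in adapted samples, with COL18A1 as the widest adapted segment.

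Enzymes that modify and process collagen were called in both directions. Of 32 genes of this list, 22 were tested, and 4 rose and 7 fell past the threshold (50%, against 56.9% of all rows), with a median log2 fold change of -0.03. Leaving out adapted replicate 1 gave 5 that rose and 11 that fell, where 66.1% of all rows were called. P4HA1, a catalytic subunit of prolyl 4-hydroxylase, which stabilizes the collagen helix, fell from 4.75 ± 0.06 to 2.61 ± 0.04 (SD of 3 samples, adjusted p = 1.17e-06 by limma). P4HA2, another catalytic subunit, averaged 4.31 ± 0.02 in parental and 4.39 ± 0.06 in adapted cells (adjusted p = 0.306 by limma). P4HA3, a further catalytic subunit, lay below the filter at 0.12 ± 0.09 and 0.65 ± 0.26, higher in adapted cells with no overlap. PLOD2, a lysyl hydroxylase that prepares cross-links, fell by 1.36 on the log2 scale, and FKBP10, a collagen chaperone, by 0.99. P4HB, the beta subunit of prolyl 4-hydroxylase, fell by 0.23 (adjusted p = 0.0156) and was not past the threshold after quantile normalization (-0.09). BMP1 and TLL1, proteases that trim procollagens and laminin-332, rose by 1.05 and 0.88, and SERPINH1, the collagen chaperone HSP47, rose by 0.57 (adjusted p = 0.00363).

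Of 14 other components of the basement membrane, 7 were tested, and 5 rose and 0 fell by limma (71.4% called, against 56.9% of all rows), with a median log2 fold change of 0.98. All 7 had a higher mean in adapted cells, so 0 were lower at an unadjusted p under 0.05. The 2 not past the threshold were HSPG2 (log2 fold change 0.13, adjusted p = 0.171 by limma) and EGFLAM (0.11, adjusted p = 0.573). FBLN1, one of the 5, passed the filter only through the adapted samples and so had to differ (parental 0.91 ± 0.06, adapted 1.75 ± 0.34, SD of 3 samples). SPARC, a collagen-binding glycoprotein, went from 1.19 ± 0.05 to 4.12 ± 0.25 (SD of 3 samples, adjusted p = 4.85e-06), FRAS1 rose by 2.02 and NTN4, a netrin that binds laminin, by 1.54. NID1, which links laminin to type IV collagen, was 0.05 ± 0.01 in parental and 0.55 ± 0.10 in adapted cells and lay below the filter. FREM2, a partner of FRAS1 that lay below the filter too, was 1.32, 1.28 and 1.19 in parental and 0.94, 0.36 and 0.29 in adapted cells, lower with no overlap. It was named after its values were seen. With no filter, 7 of the 14 genes of this list were called higher and 1 lower, where 8759 of all 23902 rows tested were called.

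Of 13 receptors for collagen and laminin, 8 were tested, 2 rose and 4 fell (75%, against 56.9% of all rows), with a median log2 fold change of -0.25. The integrin chains ITGA2, a collagen receptor, and ITGA3, ITGA6 and ITGB4, laminin receptors, fell by 0.91, 0.53, 0.56 and 0.51 on the log2 scale (limma, adjusted p of 3.20e-05, 4.89e-04, 0.0171 and 8.61e-04). ITGB1, the beta chain common to most of these receptors, averaged 8.64 ± 0.02 and 8.77 ± 0.14 in the parental and adapted groups (SD of 3 samples, adjusted p = 0.213), and DDR1, a collagen-binding kinase, was 6.26 ± 0.00167 and 6.27 ± 0.16 (adjusted p = 0.947). The 2 that rose were the laminin receptors BCAM, which binds LAMA5, by 1.47 and DAG1, dystroglycan, by 0.60.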

How the data were processed

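Gene expression was measured by RNA sequencing in 6 samples of H1975 cells, 3 parental and 3 adapted. The authors deposited 1 table of log2 values with 1 column per sample. Its columns were matched to the samples by treatment and replicate number, and 0 other per-sample columns were left out. The submitters' processing notes name Bowtie2 2.1.0, STAR, edgeR and hg38. The study's own test needs counts, so limma 3.58.1 (R 4.3.3) was run on the log2 values, without pairing and with trended variances (lmFit, eBayes), over the 12656 rows with a mean of at least 1, Benjamini-Hochberg adjustment and a threshold of 0.05. No pseudocount was added to the deposited values. Converted to the linear scale, the deposited values are multiples of 1e-06, except in 147 rows (none of them a chain or companion gene), where the 3 log2 values of either the parental or the adapted samples fit that step only once a constant is subtracted. Partner chains were compared by their log2 difference within samples (two-sided exact permutation test). Chains and lists were chosen with earlier results of these data known. The values of 1 chain are not reported here, although counts and medians over the chains include it. Named were the other tested chains, and from each companion list the 3 largest rises and 3 largest falls at most among genes called without overlap, plus SERPINH1, P4HB, NID1, ITGB1, ITGB4 and DDR1. P4HA2, P4HA3, HSPG2 and EGFLAM were added after their values were seen. Coordinates are from GENCODE v29 (GRCh38) and promoter sequences from RefSeq (GRCh38.p14). The model was tested on simulated data. Figures were drawn in Python 3.11.15 with matplotlib 3.10.9.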

Additional observations from a re-analysis of the deposited data

How the results depend on the processing

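Settings tried were a filter at a mean of 3, dropping the filter, a pseudocount of 0.1, 4 rescalings, eBayes without a trend or robust, the replicate number as a block, each sample left out, NewGene_ rows left out, rows off the grid left out or corrected, and other thresholds. Of 353 values of single chains under them, 341 kept direction and side of the threshold. The count of chains called, 13 of 20, was 20 of 50 with no filter and 6 of 12 with the stricter filter. Over all rows, 8759 of 23902 and 4532 of 7693 were called at these 2 settings. The median log2 fold change of the chains, 0.40 in the main fit, was 0.036 with no filter and 0.016 with the stricter one. Over all rows it was 0.0097 and 0.0079. The count of chains was 6 when a change of at least 1 on the log2 scale was also asked for, and 12 to 18 with 1 sample left out. The 8 chains below the filter that were called without it were COL21A1, COL4A3, COL8A1, LAMA1, COL15A1, COL4A4 and LAMC3, higher, and COL4A6, lower. Without the filter COL17A1 had an adjusted p of 0.0797 (limma). The rows called over the whole table, 7202, became 4532 with the stricter filter and 1328 with the limit of 1, and 5763 to 8370 with 1 sample left out. The limit of 1 left 3 of 11 enzymes, 3 of 5 basement membrane genes and 1 of 6 receptors, and basement membrane calls were 8 with no filter and 3 with the stricter one. LAMB3 passed the threshold when samples were centred on the median (-0.44, adjusted p = 0.044) and without adapted replicate 2 (-0.53). Among values not past the threshold, DDR1 was -0.012 when centred on the median and -0.043 to 0.098 with 1 sample left out. The change of COL4A1 minus COL4A2, -0.11, was 0.13 with a pseudocount of 0.1, and that of LAMA3 minus LAMB3, 0.03, was -0.0064 after quantile normalization and -0.23 to 0.18 with 1 sample left out, the lowest without adapted replicate 1. The cause was not tested. The share of all calls that were higher was 54.0%, and 51.1% to 59.1% under the rescalings. With the replicate block, 6761 rows and 13 chains were called. Samples of the same number did not deviate together (r of -0.05, -0.03 and -0.02 across rows). These values cannot tell whether samples of the same number were handled together. Unknown depth limits the chains with low values most.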
